A study of Homo sapiens with 4 samples.

Results

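The genes described here encode the enzymes of glycolysis and of the pentose phosphate pathway in human cells, together with the glucose and lactate transporters at the ends of the pathway and the kinases that switch off pyruvate dehydrogenase. The set holds 33 genes chosen by symbol, and all 33 were among the 20457 features of the tables. The values are TPM, an abundance per transcript length that was scaled to the same sum in every library. All 33 had a mean of at least 1 TPM over the 4 libraries, the minimum for testing, but *SLC16A3* reached it only through its siCNOT4 values. The libraries came from HEK293, an established human embryonic kidney line. In the siControl group (2 libraries, wild-type genotype) cells had received a control siRNA, and in the siCNOT4 group (2 libraries) an siRNA that lowers CNOT4. Both groups received 10 nM for 72 h, and poly(A) RNA was sequenced. CNOT4 is a ubiquitin ligase that binds the CCR4-NOT deadenylase complex, and the study asked whether it takes part when codon usage affects expression. No label says that the replicates were separate cultures, so p-values reflect the spread between these libraries, which may be technical.

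Glycolysis splits glucose into pyruvate and yields ATP and NADH in the cytosol. Hexokinase, phosphofructokinase and pyruvate kinase catalyse its irreversible steps, and lactate dehydrogenase restores NAD by turning pyruvate into lactate. The pentose phosphate pathway branches off at glucose 6-phosphate and supplies NADPH and ribose 5-phosphate, and transketolase and transaldolase return its sugars to glycolysis. Most steps can be carried by several isoenzymes from different genes. Proliferating cell lines such as HEK293 are known for high glycolytic flux even with oxygen present.

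*CNOT4* itself had 6.43 and 4.73 TPM in siControl and 3.38 and 3.81 TPM in siCNOT4, a log2 difference of -0.51 that was not called as deposited (limma adjusted p = 0.184) and was called lower after the TMM scaling described below (-0.98, limma adjusted p = 0.0337). The libraries differed in general. The median log2 fold change of all 14208 tested features was 0.50, and siControl replicate 1 exceeded replicate 2 by a median of 0.38. The steps between low TPM values, with GENCODE gene lengths, put the depth at roughly 36500000 to 38000000 reads per library. Of 8 HEK293 markers all were above 0 in each library, and their summed level was 1863 and 1577 TPM in siControl, against 1345 and 1347 TPM in siCNOT4. *VIM*, the filament protein vimentin, carried that difference, at 917 and 650.1 TPM against 369 and 354 TPM (log2 fold change -1.09, limma adjusted p = 0.0288). The 7 others summed to 947 and 927 TPM against 976 and 993 TPM. *KRT18*, a keratin, had 197 and 193 TPM against 246 and 264 TPM (0.39, limma adjusted p = 0.0919). *LIN28B*, an RNA-binding protein of early development, had 52.6 and 22.1 TPM against 74.2 and 68.7 TPM (1.04, limma adjusted p = 0.1001). *NEFL* went the other way, at 384 and 346 TPM against 336 and 307 TPM (-0.18, limma adjusted p = 0.334). *KRT8* (-0.01), *EYA1* (-0.05) and *PAX2* (0.33) were not called either. After TMM scaling *KRT18* was -0.19, *LIN28B* 0.47 and *NEFL* -0.76. Of 10 markers of other cell types 1 to 5 were at 0 in a library, *HBB* in all of them. Apart from *CD68*, they summed to 1.77 and 1.21 TPM in siControl and 10.6 and 10.8 TPM in siCNOT4, mostly the matrix genes *COL1A1* and *LUM*, both called higher (1.67 and 1.80, limma adjusted p = 0.0248 and 0.0227), *LUM* being tested only through its siCNOT4 values, while *COL1A2* was at 0.0152 TPM or less. Their part in the results below was not tested. In bulk RNA, fewer cells of a type and less RNA per cell cannot be told apart.

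The 33 genes together took 1.61% and 1.48% of all TPM in siControl and 1.37% and 1.28% in siCNOT4, and the groups did not overlap. *GAPDH* was the most abundant, and without it the summed level was 10753 and 10066 TPM in siControl against 9693 and 9214 TPM in siCNOT4. The order by mean level ran from *GAPDH* (4417 TPM), *LDHB* (2157), *ENO1* (1875), *PKM* (1011), *TPI1* (853), *PGK1* (752) and *LDHA* (700.002) down to *PFKFB2* (7.13), *PFKFB4* (4.54) and *SLC16A3* (1.19). Neighbours such as *TPI1* and *PGK1*, or *PFKL* (105) and *ENO2* (102), were closer than the spread between their libraries.

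**Figure D1:**
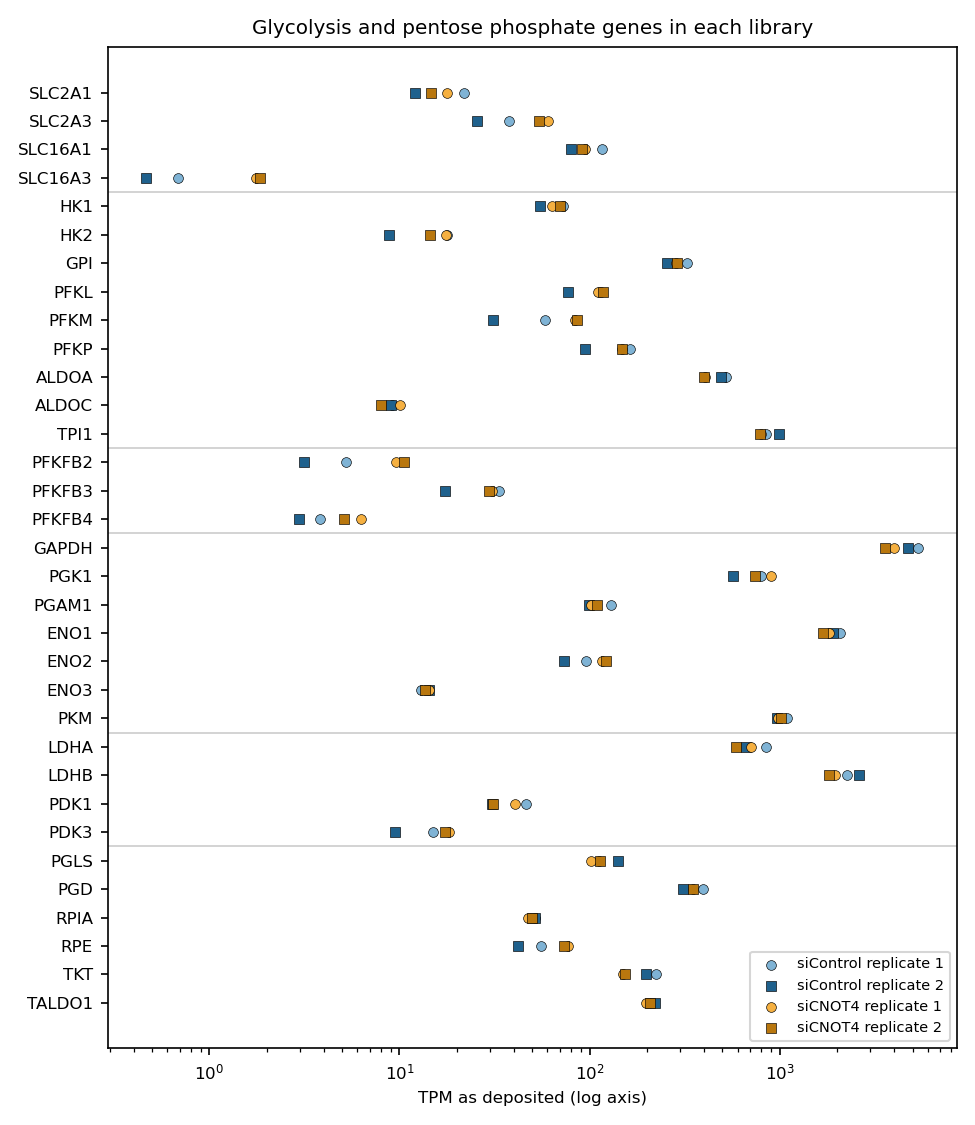
TPM of the 33 genes (log axis) in each of the 4 libraries, grouped by role, with circles for replicate 1 and squares for replicate 2. The abundant enzymes *GAPDH*, *LDHB*, *ENO1* and *TKT* have both siCNOT4 libraries to the left of both siControl libraries, and *PFKM*, *PFKFB2* and *SLC2A3* have them to the right.

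Group differences were tested with limma on log2(TPM + 1), and a gene was called at an adjusted p under 0.05 over all tested features. Of the 33 genes, 1 was called higher in siCNOT4 (3.03%) and 0 lower, while 12.6% of all tested features were called, 11.3% higher and 1.30% lower. The called gene was *SLC16A3*, which was tested only through its siCNOT4 values. At an unadjusted limma p under 0.05 there were 10 of 33 genes, against 42.0% of all features. The median log2 fold change of the set was -0.0024, compared with 0.50 for all features, and 25 of 33 genes were below that general median. Both siCNOT4 libraries were above both siControl libraries for 8 genes (24.2%, against 66.4% of all features) and below them for 7 genes (21.2%, against 10.6%). These counts rested on single libraries. Without siControl replicate 1 there were 17 of 33 genes called higher (70.9% of all features were) and 6 lower (8.73% were). Without siControl replicate 2 there were 6 higher (47.2%) and 9 lower (10.3%). Without siCNOT4 replicate 1 or 2 there were 0 higher (3.09% and 2.91%) and 0 lower (0.260% each).

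Because TPM is relative, the same genes were compared after TMM scaling (trimmed mean of M values), which brought the median of all features to -0.02. On that scale 2 of 33 were called lower (5.59% of all features were) and 0 higher (4.30% were). The set had a median of -0.55. On that scale 20 of 33 were called lower without siControl replicate 1 (35.6% of all features were) and 23 without siControl replicate 2 (27.7%). Without siCNOT4 replicate 1 or 2 it was 0 (1.37% and 1.49%). The siCNOT4 pair lay under the siControl pair for 24 genes (72.7%, against 36.7% of all features) and over it for 4 (12.1%, against 33.1%). Quantile normalization gave a smaller distance, with a set median of -0.05 against 0.02 for all features 1 gene called lower (8.23% of all features were) and 0 higher (7.11% were). The median of the set was therefore near 0 or below it on these scales, and how far it lay under the general median depended on the scaling.

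**Figure D2:**
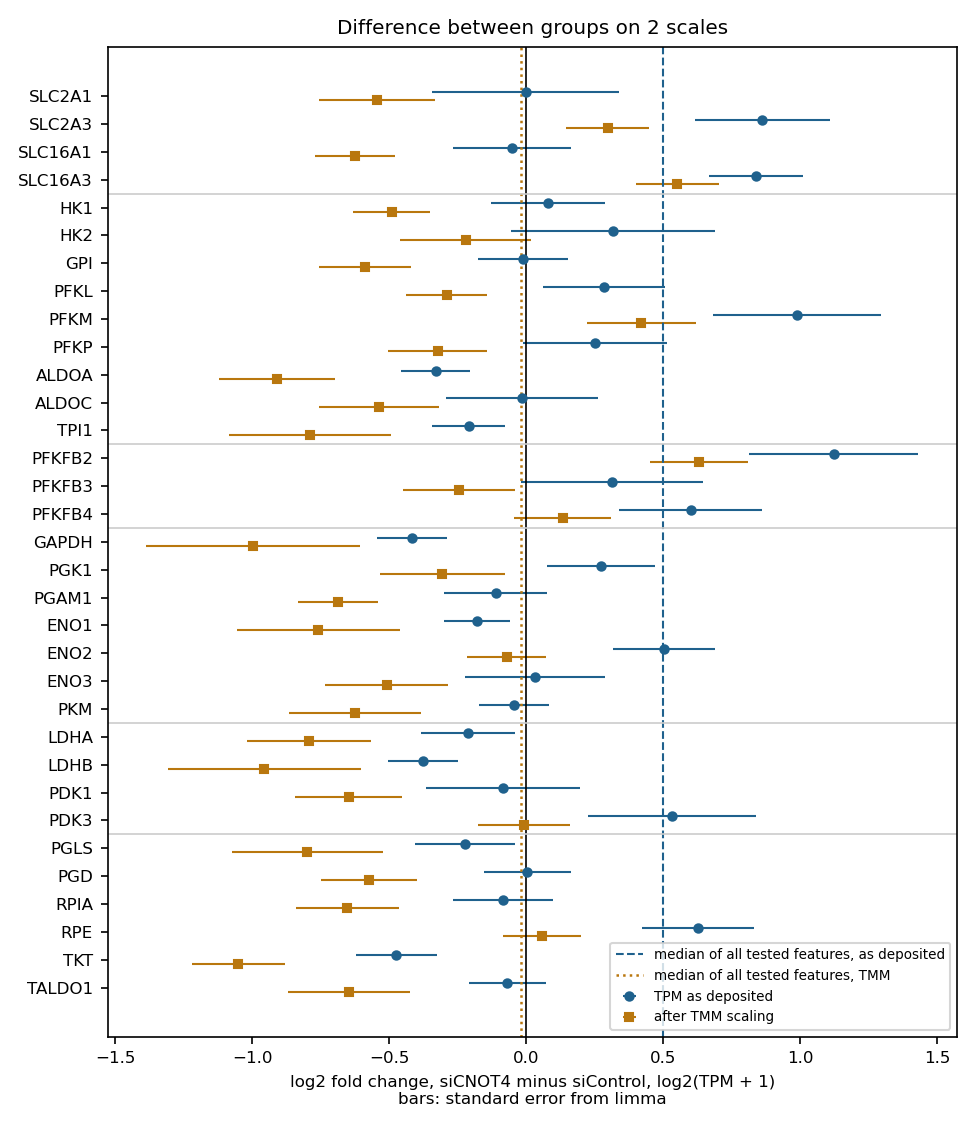
Log2 fold change (siCNOT4 minus siControl) with its standard error for each gene, from TPM as deposited (circles) and after TMM scaling (squares), with the median of all tested features as vertical lines. Most genes lie left of the line for their scale, and *SLC2A3*, *SLC16A3*, *PFKM*, *PFKFB2*, *PFKFB4*, *ENO2*, *PDK3* and *RPE* lie to the right of the dashed line.

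The glucose and lactate carriers at the cell membrane held the only gene called as deposited, *SLC16A3*, which was tested only through its siCNOT4 values. *SLC16A3* encodes MCT4, a lactate exporter of strongly glycolytic cells. Its level was 0.684 and 0.466 TPM in siControl, against 1.76 and 1.85 TPM in siCNOT4. The siCNOT4 libraries were thus higher and did not overlap with siControl, but all 4 values were low, at roughly 45.2, 34.9, 111 and 115 reads. The log2 fold change was 0.84 (SE 0.17, limma adjusted p = 0.0396). The call was lost after TMM scaling (log2 fold change 0.55, limma adjusted p = 0.0707) and with a pseudocount of 0.1 (1.52, limma adjusted p = 0.0606), and also without siCNOT4 replicate 1 or 2 (0.86 and 0.81, limma adjusted p = 0.111 and 0.142). Exons of *SLC16A3* overlap the opposite gene *CSNK1D* in GENCODE, which had 119 and 83.4 TPM in siControl and 138 and 153 TPM in siCNOT4. The library kit marks strand per the labels, but whether the counting used it is not given in the sources used here, so reads of these genes may be mixed. *SLC2A1*, *TPI1*, *ENO1*, *RPE* and *PFKM* also overlap opposite genes, and *PGK1* overlaps *ATP7A* on the same strand. *SENP1*, opposite *PFKM*, had 25.7 and 14.4 TPM in siControl and 23.2 and 21.1 TPM in siCNOT4.

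*SLC2A3* encodes GLUT3, a glucose transporter of high affinity. It had 37.5 and 25.6 TPM in siControl and 60.3 and 54.1 TPM in siCNOT4, with no overlap between groups (log2 fold change 0.86, SE 0.25, limma adjusted p = 0.0620). The difference was smaller after TMM scaling (0.30, limma adjusted p = 0.213), centring on the general median (0.36) and trend removal (0.27). A near-identical gene, *SLC2A14*, was at 0.372 to 2.10 TPM, and how shared reads were divided is unknown. The ubiquitous transporter GLUT1, encoded by *SLC2A1*, had 21.7 and 12.1 TPM in siControl and 17.9 and 14.7 TPM in siCNOT4, which overlapped. *SLC16A1* encodes MCT1, the general monocarboxylate carrier, and likewise overlapped, at 116 and 80.3 TPM against 94.6 and 91.2 TPM. After TMM scaling *SLC2A1* (-0.55, limma adjusted p = 0.131) and *SLC16A1* (-0.63, limma adjusted p = 0.0550) were lower without overlap, as were 36.7% of all features.

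The share of an isoenzyme within its family is a ratio inside a library, so no scaling between libraries can alter it. With 2 libraries in each group an exact two-sided permutation test cannot give a p below 0.333, so shares are given as values. *SLC2A3* made up 63.3% and 67.9% of the summed *SLC2A1* and *SLC2A3* level in siControl and 77.1% and 78.6% in siCNOT4. The difference between group means was 12.3 percentage points, and leaving out any library kept it between 9.96 and 14.6. *SLC16A3* made up 0.588% and 0.577% of the *SLC16A1* and *SLC16A3* level in siControl and 1.83% and 1.99% in siCNOT4.

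The codon composition of the carriers can be read from their coding sequences, which bear on the study's question. The first 75 coding bases of the principal GENCODE 29 transcript are shown, with a capital wherever a codon ends in G or C.
SLC2A1: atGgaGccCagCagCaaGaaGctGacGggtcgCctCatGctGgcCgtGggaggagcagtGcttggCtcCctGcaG
SLC2A3: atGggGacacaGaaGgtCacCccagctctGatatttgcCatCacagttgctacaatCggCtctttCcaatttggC
SLC16A1: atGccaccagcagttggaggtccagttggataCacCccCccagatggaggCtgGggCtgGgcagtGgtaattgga
SLC16A3: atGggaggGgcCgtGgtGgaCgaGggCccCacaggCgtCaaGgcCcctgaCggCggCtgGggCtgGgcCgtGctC
In these stretches of 25 codons, 20 ended in G or C in *SLC2A1* and 13 in *SLC2A3*, while 9 did in *SLC16A1* and 22 in *SLC16A3*. Over the whole coding sequence GC3, the percentage of codons that end in G or C, was 79.1% for *SLC2A1* and 58.1% for *SLC2A3*, and 45.0% for *SLC16A1* and 87.3% for *SLC16A3*. In the glucose pair the share of *SLC2A3*, of lower GC3, was larger in siCNOT4 (transcripts of 3915 nt against 3670 nt for *SLC2A1*). In the lactate pair the share of *SLC16A3*, of higher GC3, was larger (4830 nt against 4374 nt for *SLC16A1*). *SLC16A3* was low, was tested only through its siCNOT4 values and overlaps *CSNK1D*, so its share is uncertain. Whether codon endings or length bear on these shares was not tested.

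The upper enzymes prime and split the sugar. None of the 9 genes was called as deposited (12.6% of all features were) or after TMM scaling (9.89%). As deposited 2 of 9 had an unadjusted limma p under 0.05, against 42.0% of all features. *PFKM*, the muscle-type subunit of phosphofructokinase, which commits sugar to glycolysis, had 58.2 and 30.9 TPM in siControl and 84.3 and 86.0 TPM in siCNOT4. The groups did not overlap, although the siControl libraries differed more from each other than the siCNOT4 libraries did (log2 fold change 0.99, SE 0.31, limma adjusted p = 0.0711). After TMM scaling the difference was 0.42 (limma adjusted p = 0.185). Without siControl replicate 2 the difference was 0.54 and without siControl replicate 1 it was 1.43. The liver-type subunit *PFKL* had 114 and 76.8 TPM against 111 and 118 TPM, and the platelet-type subunit *PFKP* 163 and 94.9 TPM against 148 and 149 TPM. Both of these overlapped between groups as deposited. After TMM scaling *PFKL* (-0.29, limma adjusted p = 0.211) and *PFKP* (-0.32, limma adjusted p = 0.242) were lower without overlap.

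Within the phosphofructokinase family *PFKM* held 17.3% and 15.2% of the level in siControl and 24.6% and 24.4% in siCNOT4. The group means differed by 8.19 percentage points, and by 7.13 to 9.24 when any library was left out. The higher *PFKM* share went with lower shares of *PFKP* (48.6% and 46.8% against 43.2% and 42.2%) and of *PFKL* (34.0% and 37.9% against 32.2% and 33.5%). No share overlapped between the groups. The start of each coding sequence shows how far the subunits differ in codon endings.
PFKL: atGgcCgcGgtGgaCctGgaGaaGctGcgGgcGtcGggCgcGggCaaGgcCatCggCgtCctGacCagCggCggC
PFKM: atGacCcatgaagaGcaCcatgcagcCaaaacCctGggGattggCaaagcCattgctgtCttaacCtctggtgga
PFKP: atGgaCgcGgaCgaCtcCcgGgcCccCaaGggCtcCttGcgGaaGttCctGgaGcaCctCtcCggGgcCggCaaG
All 25 codons of these stretches ended in G or C in *PFKL* and *PFKP*, compared with 12 of 25 in *PFKM*. GC3 over the coding sequence was 83.7% for *PFKL*, 59.4% for *PFKM* and 75.1% for *PFKP*. The representative transcripts were 2912, 3224 and 2654 nt long in the same order, so *PFKM* had the longest.

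The remaining upper enzymes had log2 fold changes from -0.33 to 0.32 as deposited. After TMM scaling *ALDOA* (-0.91, limma adjusted p = 0.0546), *TPI1* (-0.79), *GPI* (-0.59), *ALDOC* (-0.54) and *HK1* (-0.49) were lower without overlap. *HK2* (-0.22) overlapped on that scale. Of all features 36.7% were lower without overlap there. The TPM below are as deposited. *HK1*, the housekeeping hexokinase, had 72.7 and 54.7 TPM in siControl and 63.7 and 69.9 TPM in siCNOT4. *HK2*, the inducible hexokinase, had 17.7 and 8.82 TPM against 17.5 and 14.4 TPM. Its share of the hexokinase level was 19.6% and 13.9% in siControl, against 21.5% and 17.1% in siCNOT4, which overlapped. The isomerase *GPI* was at 326 and 255 TPM against 286 and 287 TPM, also overlapping. *ALDOA*, the main aldolase, had 521 and 491 TPM in siControl and 405 and 399 TPM in siCNOT4 without overlap (log2 fold change -0.33, SE 0.13, limma adjusted p = 0.103). *ALDOC*, the brain-type aldolase, reached at most 10.1 TPM and overlapped. *TPI1*, which interconverts the triose phosphates, had 844 and 989 TPM against 792 and 786 TPM, lower in both siCNOT4 libraries (log2 fold change -0.21, limma adjusted p = 0.256).

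The PFKFB enzymes make and break down fructose 2,6-bisphosphate, the main activator of phosphofructokinase. None of the 3 was called as deposited (12.6% of all features were) or after TMM scaling (9.89%). As deposited 1 of 3 had an unadjusted limma p under 0.05, against 42.0% of all features. *PFKFB2*, the heart-type enzyme, had 5.24 and 3.14 TPM in siControl and 9.55 and 10.6 TPM in siCNOT4. Its groups did not overlap, and its log2 fold change was 1.12 (SE 0.31, limma adjusted p = 0.0593). After TMM scaling it was 0.63 (limma adjusted p = 0.0749). *PFKFB4* had 3.83 and 2.98 TPM against 6.25 and 5.10 TPM, higher without overlap (log2 fold change 0.60, limma adjusted p = 0.131). After TMM scaling its groups overlapped (0.13, limma adjusted p = 0.611). *PFKFB3*, the isoform of proliferating cells, overlapped at 33.3 and 17.5 TPM against 30.7 and 29.8 TPM.

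The lower enzymes harvest ATP and NADH and include the most abundant transcripts of the set. None of the 7 was called as deposited (12.6% of all features were), where 2 had an unadjusted limma p under 0.05 (42.0% of all features did). Their summed level was 9556 and 8380 TPM in siControl, against 7919 and 7268 TPM in siCNOT4. *GAPDH*, which couples oxidation to phosphorylation, had 5361 and 4742 TPM against 3996 and 3571 TPM. Both siCNOT4 libraries were lower (log2 fold change -0.42, SE 0.13, limma adjusted p = 0.0704). The same gene gave 0.03 under quantile normalization, -0.996 after TMM scaling (limma adjusted p = 0.135) and -0.92 relative to the general median, where it was called (limma adjusted p = 0.0245). *ENO1*, the general enolase, had 2070 and 1915 TPM against 1820 and 1696 TPM, lower without overlap (log2 fold change -0.18, limma adjusted p = 0.274).

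*ENO2*, the enolase named for neurons, went the other way as deposited, with 95.4 and 73.8 TPM in siControl and 116 and 122 TPM in siCNOT4 (log2 fold change 0.50, SE 0.19, limma adjusted p = 0.0989), and gave -0.07 after TMM scaling. Its share of the enolase level was 4.38% and 3.68% in siControl, against 5.96% and 6.68% in siCNOT4, with no overlap. Here GC3 hardly differed, at 65.2% for *ENO2* and 65.7% for *ENO1*, and the representative transcripts were 2827 and 2345 nt long. *ENO3*, the muscle enolase, ranged from 12.9 to 14.3 TPM over all libraries. *PGK1*, which makes ATP from 1,3-bisphosphoglycerate, had 799 and 569 TPM against 896 and 742 TPM, and *PKM*, pyruvate kinase, 1088 and 966 TPM against 975 and 1014 TPM. Both overlapped as deposited. After TMM scaling *ENO3* (-0.51), *PGK1* (-0.31) and *PKM* (-0.62) were lower without overlap (limma adjusted p = 0.165, 0.365 and 0.131).

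*PGAM1*, the phosphoglycerate mutase, had 130 and 99.8 TPM in siControl and 101 and 110 TPM in siCNOT4, which overlapped as deposited (log2 fold change -0.11, SE 0.19, limma adjusted p = 0.659). After TMM scaling it was lower in siCNOT4, with no overlap between groups (log2 fold change -0.69, SE 0.15, limma adjusted p = 0.0471). This call was lost when either siCNOT4 library was left out (limma adjusted p = 0.508 and 0.404). GENCODE lists 13 pseudogenes named after *PGAM1* and 62 named after *GAPDH*. In all, 15 of the 33 genes have such copies, 113 together, of which 3 are features of the tables, so read assignment for these genes is uncertain.

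Pyruvate is reduced to lactate by LDHA and LDHB tetramers, and the PDK kinases keep it out of mitochondria by inactivating pyruvate dehydrogenase. As deposited 0 of these 4 genes were called (12.6% of all features were), with 1 at an unadjusted limma p under 0.05 (42.0%). After TMM scaling 0 were called (9.89%). With length and GC trends removed *LDHA*, *LDHB* and *PDK1* were called lower (limma adjusted p = 0.0223, 0.0357 and 0.0180), as were 13.5% of all features. Relative to the general median *LDHB* was also called lower (limma adjusted p = 0.0258), as were 670 of 14208 features. *LDHB*, the heart-type subunit, had 2268 and 2610 TPM in siControl and 1944 and 1807 TPM in siCNOT4. Both siCNOT4 libraries were lower (log2 fold change -0.38, SE 0.13, limma adjusted p = 0.0846). *LDHA*, the muscle-type subunit, had 843 and 663 TPM against 707 and 588 TPM and overlapped. *LDHB* exceeded *LDHA* in every library, and *LDHA* took 27.1% and 20.3% of the dehydrogenase level in siControl and 26.7% and 24.5% in siCNOT4. These shares overlapped. *PDK1*, a hypoxia-inducible kinase, had 46.5 and 30.5 TPM against 40.8 and 30.9 TPM, which overlapped. After TMM scaling *LDHA* (-0.79, limma adjusted p = 0.0752) and *PDK1* (-0.65, limma adjusted p = 0.0831) were lower without overlap. *PDK3* had 15.1 and 9.46 TPM against 18.2 and 17.3 TPM, higher without overlap (log2 fold change 0.53, limma adjusted p = 0.219). After TMM scaling *PDK3* overlapped between groups (-0.0070, limma adjusted p = 0.979).

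**Figure D3:**
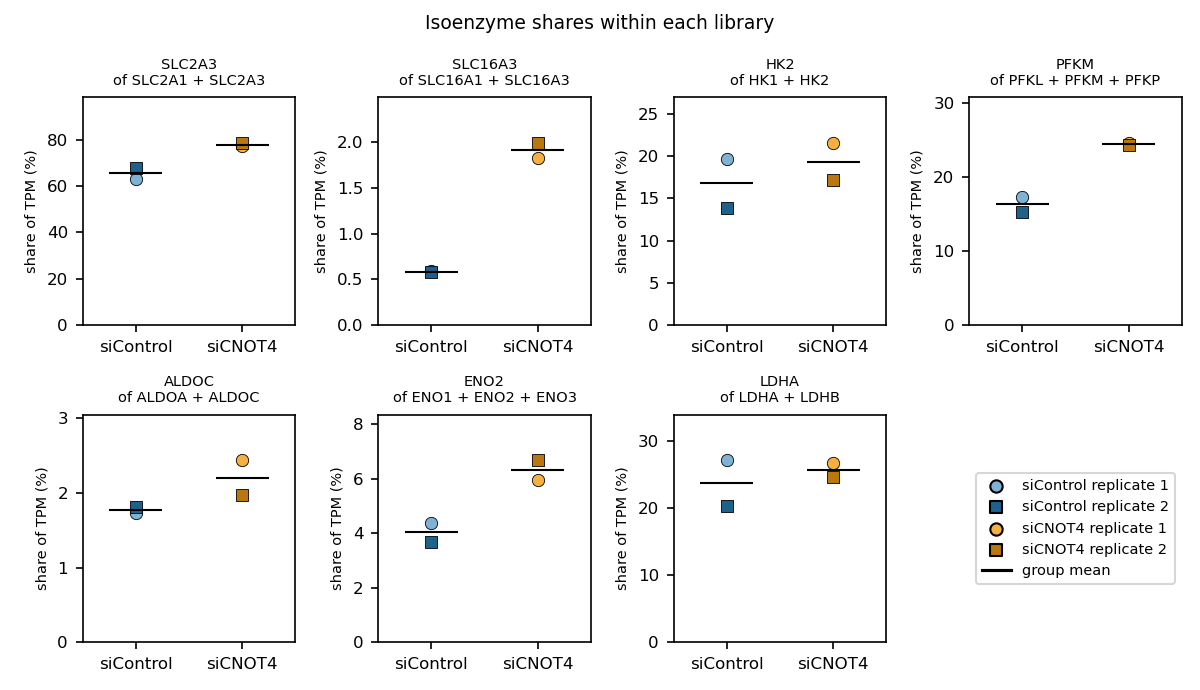
Share of 1 isoenzyme in the summed TPM of its family (%, linear axis from 0) in each library, with the group means as bars. The siCNOT4 libraries lie above both siControl libraries for *SLC2A3*, *SLC16A3*, *PFKM*, *ALDOC* and *ENO2*, and overlap with them for *HK2* and *LDHA*.

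In the pentose phosphate branch *TKT* was the gene called after TMM scaling. It encodes transketolase, which moves carbon units between sugar phosphates in the reversible arm. *TKT* had 224 and 198 TPM in siControl and 150.1 and 153 TPM in siCNOT4. The siCNOT4 values were both lower and close to each other, at a ratio of group means of 0.718 (log2 fold change -0.47, SE 0.15, limma adjusted p = 0.0719). After TMM scaling it was called lower (log2 fold change -1.05, SE 0.17, limma adjusted p = 0.0328). It was also called lower under quantile normalization (-0.65, limma adjusted p = 0.0315) and after removal of each library's trend with length and GC content (-0.85, limma adjusted p = 0.0122). The TMM call was kept when either siControl library was left out and lost without either siCNOT4 library (limma adjusted p = 0.244 and 0.219), with log2 fold changes between -1.18 and -0.92.

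The partner enzyme *TALDO1*, transaldolase, had 206 and 220 TPM in siControl and 197 and 208 TPM in siCNOT4, which overlapped. It was lower without overlap after TMM scaling (-0.65, limma adjusted p = 0.106). *RPE*, the ribulose 5-phosphate epimerase, had 55.4 and 42.2 TPM against 77.2 and 73.2 TPM, higher without overlap as deposited (log2 fold change 0.63, SE 0.21, limma adjusted p = 0.0784) but overlapping after TMM scaling. *RPIA*, the isomerase that makes ribose 5-phosphate, had 51.8 and 51.4 TPM against 47.5 and 49.8 TPM, lower without overlap (log2 fold change -0.08, limma adjusted p = 0.736). In the oxidative arm *PGLS*, the lactonase, had 112 and 141 TPM against 102 and 113 TPM, and the NADPH-forming dehydrogenase *PGD* 393 and 310 TPM against 348 and 352 TPM. Both overlapped as deposited. After TMM scaling *PGLS* (-0.80, limma adjusted p = 0.106) and *PGD* (-0.57, limma adjusted p = 0.0837) were lower without overlap. As deposited 0 of the 6 pentose phosphate genes were called (12.6% of all features were). After TMM scaling 1 was called lower (5.59% of all features were) and 0 higher (4.30%).

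Transcript length and codon endings were compared with these differences. The representative transcripts had a median length of 2717 nt in the set and 3057 nt among all tested features with a GENCODE match, and the median GC3 was 66.9% against 59.1%. Across the 33 genes the log2 fold change had a Spearman rho of 0.549 with transcript length and -0.048 with GC3. The difference between the siControl replicates had a rho of 0.730 with length and -0.065 with GC3 in the same genes, and that between the siCNOT4 replicates 0.213 and -0.329. These points share libraries and are not independent, so the correlations are descriptions. In 3 sets of 11 by GC3, the genes had medians of 0.27 (lowest GC3), -0.04 and -0.0024 (highest GC3) for the log2 fold change. Split by length these medians were -0.11, 0.25 and 0.27 from the shortest to the longest. After removal of each library's trend with length and GC content, 9 of the 33 genes were called lower (27.3%, against 13.5% of all features) and 0 higher (against 11.9%). These were *SLC16A1*, *HK1*, *GPI*, *ALDOA*, *LDHA*, *LDHB*, *PDK1*, *RPIA* and *TKT*, with log2 fold changes from -1.07 (*PDK1*) to -0.41 (*HK1*).

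**Figure D4:**
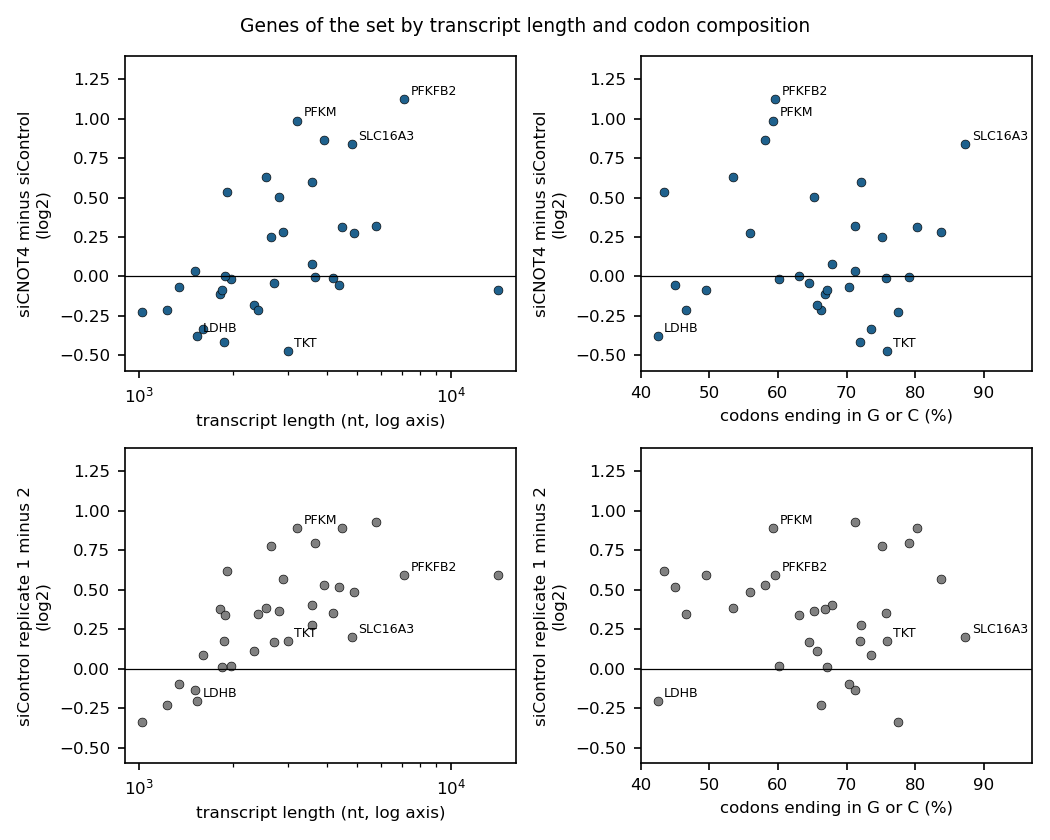
Differences on the log2(TPM + 1) scale for the 33 genes against transcript length (nt, log axis, left) and GC3 (%, right). The upper panels show siCNOT4 minus siControl and the lower panels siControl replicate 1 minus replicate 2, and in both rows the values against length tend to be higher for longer transcripts (Spearman rho 0.549 and 0.730).

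Many glycolytic promoters respond to hypoxia-inducible factor, whose core sites read ACGTG, and in another form of the same core GCGTG. The RefSeq table (GRCh38.p14) held promoters for 30 of the 33 genes, from 250 bases before to 50 bases after the start. The authors' tables use hg19, and no coordinates were compared between the builds. On either strand, 19 of the 30 promoters (63.3%) held a core, against 63.5% for tested features with a promoter in the table and 48.4% of all 27305 promoters. The E-box CACGTG, which contains the ACGTG core, was in 3 of 30 (10.0%, against 10.1% for tested features), and the GC box GGGCGG in 25 of 30 (83.3%, against 70.7%). The median log2 fold change was -0.0024 for the 19 genes with a core and -0.07 for the 11 without. The promoters below show *LDHA*, which with *PGK1* and *ALDOC* had the most separate core stretches (4), and *PFKM* and *TKT*, which had none. Capitals mark either core on either strand, and joined matches form 1 stretch.
LDHA (chr11:18394313-18394612, + strand): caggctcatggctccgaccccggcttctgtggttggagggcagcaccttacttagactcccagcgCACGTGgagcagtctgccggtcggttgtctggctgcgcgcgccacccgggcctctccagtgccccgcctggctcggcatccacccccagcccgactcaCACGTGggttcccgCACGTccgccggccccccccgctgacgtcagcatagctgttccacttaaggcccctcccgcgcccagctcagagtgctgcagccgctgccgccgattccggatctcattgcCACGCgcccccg
PFKM (chr12:48105623-48105922, + strand): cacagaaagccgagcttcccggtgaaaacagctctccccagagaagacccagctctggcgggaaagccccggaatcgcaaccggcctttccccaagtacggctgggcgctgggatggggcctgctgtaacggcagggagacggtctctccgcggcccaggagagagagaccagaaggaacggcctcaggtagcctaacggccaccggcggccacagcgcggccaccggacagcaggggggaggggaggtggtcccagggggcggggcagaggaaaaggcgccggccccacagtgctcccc
TKT (chr3:53255973-53256272, - strand): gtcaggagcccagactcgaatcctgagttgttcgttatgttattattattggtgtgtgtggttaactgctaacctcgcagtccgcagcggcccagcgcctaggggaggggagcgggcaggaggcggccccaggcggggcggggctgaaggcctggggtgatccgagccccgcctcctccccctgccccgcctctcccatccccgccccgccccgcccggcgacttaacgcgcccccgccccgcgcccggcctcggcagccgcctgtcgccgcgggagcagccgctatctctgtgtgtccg
A match or its absence describes only these 300 bases.

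Genes around the pathway were read against the same background. Of 34 other sugar phosphate enzymes 33 were found in the tables and 20 were tested, of which 2 were called higher and 1 lower (3 of 20, against 12.6% of all features), with a median of 0.31 against 0.50. *PGM2L1*, which makes glucose 1,6-bisphosphate, rose from 3.55 and 1.60 TPM to 17.1 and 16.7 TPM (log2 fold change 2.38, limma adjusted p = 0.0244). It was also called higher after TMM scaling (1.91, limma adjusted p = 0.0285). *LDHC*, the testis-type lactate dehydrogenase, rose from 15.2 and 18.8 TPM to 38.2 and 34.7 TPM (1.06, limma adjusted p = 0.0439), a call that TMM scaling ended (limma adjusted p = 0.218). *PCK2*, the mitochondrial enzyme that makes phosphoenolpyruvate from oxaloacetate, fell from 111 and 94.1 TPM to 45.2 and 37.7 TPM (-1.28, limma adjusted p = 0.0254) and was also called lower after TMM scaling (-1.85, limma adjusted p = 0.0285).

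Of 14 genes for the entry of pyruvate into mitochondria, 2 were called higher and 0 lower (14.3%, against 12.6% of all features), with a median of 0.73. As deposited 1 of the 14 had a negative log2 fold change, against 18.8% of all features, and after TMM scaling 6 did. These 2 were subunits of pyruvate dehydrogenase. *PDHX* had 29.3 and 23.3 TPM in siControl and 56.6 and 57.3 TPM in siCNOT4 (1.09, limma adjusted p = 0.0360). *DLD* had 66.7 and 46.8 TPM against 109 and 107 TPM (0.94, limma adjusted p = 0.0459). After TMM scaling 0 of the 14 were called (9.89% of all features were).

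Of 14 regulators of glycolytic genes 1 was called (7.14%, against 12.6% of all features), with a median of 0.43. *TXNIP*, which restrains glucose uptake and is induced by glucose, rose from 231 and 164 TPM to 368 and 350 TPM (0.88, limma adjusted p = 0.0436), a call lost after TMM scaling (limma adjusted p = 0.235). *MLX*, a dimer partner of the glucose-sensing MondoA and ChREBP factors, had 86.2 and 66.1 TPM against 69.2 and 71.1 TPM and was called lower after TMM scaling (-0.68, limma adjusted p = 0.0454). *HIF1A* had 65.1 and 29.8 TPM against 59.5 and 60.7 TPM, which overlapped. Of 13 hypoxia targets outside glycolysis 12 were tested, with 1 called higher and 1 lower (16.7%, against 12.6%) and a median of -0.01. *DDIT4*, an mTORC1 inhibitor that stress pathways also induce, fell from 385 and 331 TPM to 132 and 109 TPM (-1.57, limma adjusted p = 0.0227). *PPFIA4* had 0.887 and 0.768 TPM against 2.17 and 2.18 TPM (0.80, limma adjusted p = 0.0436). It reached the minimum for testing only through its siCNOT4 values, and the call was lost after TMM scaling (limma adjusted p = 0.0995). After TMM scaling *DDIT4* and the angiogenic factor *VEGFA* were the called members of this list, both lower (-2.14 and -1.29, limma adjusted p = 0.0285 each).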

How the data were processed

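RNA of 4 HEK293 libraries was measured, 2 per group. The deposited files give 1 TPM value per feature and library as computed by the authors, and each library sums to 1e+06. The submitters' processing notes name FastQC 0.11.2, STAR 2.5.3a, featureCounts and hg19, and the annotation and the strand setting are not given in the sources used here. TPM is relative, so a few abundant transcripts can shift all others. Groups come from the sample labels. TPM was tested as log2(TPM + 1) with limma 3.58.1 (R 4.3.3, empirical Bayes with trend) over the 14208 features whose mean reached 1 TPM, with Benjamini-Hochberg adjustment over all of them and a threshold of 0.05. Fold changes of low genes are understated on this scale. All 33 genes are named, and other genes where called in their list. *HIF1A*, *KRT18*, *LIN28B*, *NEFL*, *KRT8*, *EYA1*, *PAX2*, *COL1A2*, *FBP1*, *PFKFB1* and *GPD1* were chosen after their values were seen. The genes and lists were chosen with earlier results of these data known. Transcript lengths and codon endings came from GENCODE 29, matching 18438 features by symbol and 953 by older symbol. Alternatives were a pseudocount of 0.1, no filter, a minimum of 5 TPM, TMM factors computed on the TPM values, quantile normalization, centring on the median, removal of length and GC trends, a replicate block and leaving out each library. TMM scaling with a library left out was added after seeing the data. The fits were run on simulated data with independent noise of equal spread in both groups. The simulation does not cover unequal spread or differences shared by many genes, so nothing is concluded from it here. Depth is an estimate, so no counting intervals are given.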

Additional observations from a re-analysis of the deposited data

How the results depend on the processing

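With 2 libraries per group the counts moved with nearly every choice, and the cause was not tested. Features called (1792) came to 558 with a pseudocount of 0.1, 908 with no filter and 147 with a mean of at least 5 TPM (where *SLC16A3* and *PFKFB4* were not tested). They came to 870 of 14208 relative to the general median (200 higher, 670 lower) and 3485 with length and GC trends removed. Leaving out a library gave 450 to 11311 (413 to 10071 higher, 37 to 1467 lower). Genes of the set called higher (1) came to 0 with a pseudocount of 0.1, a mean of at least 5 TPM, TMM scaling, quantile normalization, centring on the median and trend removal, and to 0 to 17 when a library was left out. Those called lower (0) came to 2 with TMM, 1 with quantile normalization, 6 with centring, 9 with trend removal and 0 to 9 when a library was left out. After TMM scaling, leaving out a library gave 0 to 23 lower and 0 to 4 higher. Where a siControl library was left out, the lone one is assumed to vary like the siCNOT4 pair, and the reverse holds for siCNOT4.

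The median of the set (-0.0024) was -0.55 with TMM, -0.50 with centring and -0.33 with trend removal, and -0.12 to 0.21 when a library was left out. Its distance from the general median (-0.50) was -0.073 with quantile normalization and -0.53 to -0.42 when a library was left out.

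Log2 fold changes that turned direction with TMM were *HK1* -0.49, *HK2* -0.22, *PFKL* -0.29, *PFKP* -0.32, *PFKFB3* -0.24, *PGK1* -0.31, *ENO2* -0.071, *ENO3* -0.51, *PDK3* -0.0070 and *PGD* -0.57. With quantile normalization they were *HK1* -0.26, *HK2* -0.28, *PFKL* -0.013, *TPI1* 0.058, *PFKFB3* -0.21, *PFKFB4* -0.040, *GAPDH* 0.026, *ENO1* 0.14, *ENO3* -0.55, *PKM* 0.17, *PDK3* -0.053 and *PGD* -0.037. With centring they were *HK1* -0.42, *HK2* -0.18, *PFKL* -0.22, *PFKP* -0.25, *PFKFB3* -0.19, *PGK1* -0.23, *ENO3* -0.47 and *PGD* -0.50. With trend removal they were *HK1* -0.41, *HK2* -0.33, *PFKP* -0.10, *PFKFB3* -0.21, *PGK1* -0.44, *ENO3* -0.15, *PGD* -0.31 and *RPE* -0.034. With a pseudocount of 0.1 *SLC2A1* was 0.00030.

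Leaving out a library gave ranges that spanned 0 for *SLC2A1* (-0.40 to 0.40), *SLC16A1* (-0.31 to 0.21), *HK1* (-0.12 to 0.28), *HK2* (-0.15 to 0.78), *GPI* (-0.19 to 0.17), *PFKP* (-0.14 to 0.64), *ALDOC* (-0.17 to 0.14), *PFKFB3* (-0.13 to 0.76), *PGAM1* (-0.30 to 0.077), *ENO3* (-0.035 to 0.099), *PKM* (-0.13 to 0.041), *PDK1* (-0.38 to 0.21) and *PGD* (-0.17 to 0.17). The share of *HK2* (-0.281 to 5.45 points) and of *LDHA* (-1.50 to 5.35 points) spanned 0 as well.

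The replicate numbers were not taken as pairs, since the labels name no shared origin and only 2 pairs exist, whose deviations correlated at 0.171. With a replicate block 3655 of 14208 features were called, 3342 higher and 313 lower. Of the set 3 were called higher and 1 lower, adding *SLC2A3*, *PFKM* and *GAPDH* (limma adjusted p = 0.0338, 0.00583 and 0.0462). No other call in the set differed under the block.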

Other observations

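Of the other sugar phosphate enzymes, 13 had a mean under 1 TPM and were not tested. *FBP1*, the liver and kidney fructose 1,6-bisphosphatase of gluconeogenesis, had 0.172 and 0.227 TPM in siControl and 1.49 and 1.37 TPM in siCNOT4. *PFKFB1*, the liver-type member of the PFKFB family, had 0.205 and 0.216 TPM against 0.946 and 1.17 TPM. *GPD1*, the cytosolic glycerol 3-phosphate dehydrogenase, had 0.225 and 0.397 TPM against 0.710 and 0.931 TPM. These 3 were higher in both siCNOT4 libraries than in both siControl libraries and were picked after their values were seen.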
